A study of Mus musculus with 6 samples.

Results

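Genes of the perineuronal net and of brain proteoglycans were followed in dopaminergic neurons of the mouse substantia nigra pars compacta (SNc). The 10 genes were picked by symbol from a list of net and proteoglycan genes, drawn up with earlier results of these data known, and all 10 were found among the 23337 genes of the deposited table. They are the 4 lecticans Vcan, Acan, Bcan and Ncan, the link proteins Hapln1, Hapln2 and Hapln4, the crosslinker Tnr, the hyaluronan synthase gene Has2, and the membrane proteoglycan gene Cspg5. Both groups of neurons came from adult C57BL/6 mice that carried Sox6-FSF-Cre, Th-2A-Flpo and RC-Frepe, so the Sox6+ and Sox6- neurons shared every allele and no animal was without the transgenes. In this scheme Flpo is made where Th is active, Cre is made from the Sox6 allele after Flpo has acted, and the reporter turns from mCherry to GFP where Cre has acted too. Because recombination is permanent, GFP marks a history of Sox6 expression in a Th-lineage cell and not its level on the day of the sort. GFP-sorted neurons (Sox6+) and mCherry-sorted neurons (Sox6-) gave 3 libraries each, numbered 103, 825 and 1211 in both groups. It is not stated whether a library stands for a single mouse or a pool, or whether the libraries came from separate animals, so p-values measure only the spread between these samples, which may be technical.

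The perineuronal net is a lattice of extracellular matrix around the cell body and proximal dendrites of some neurons. Its backbone is hyaluronan, a long sugar polymer spun out by membrane synthases. Lecticans, which are chondroitin sulphate proteoglycans, bind hyaluronan at their N-terminus with the help of link proteins, and tenascin-R joins them at their C-terminus. Nets are best known around parvalbumin interneurons, while a looser form of the same matrix surrounds most neurons, and glia and neurons both supply its parts.

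The libraries held from 10397924 to 12952768 reads in genes. Sox6 itself lay between 389.0 and 840.5 normalized reads in the Sox6+ libraries and between 18.1 and 103.6 in the Sox6- libraries. The 8 dopaminergic markers (Th, Slc6a3, Slc18a2, Ddc, Nr4a2, Pitx3, En1 and Drd2) were read in all 6 libraries. Their summed level ran from 102705.9 to 199737.7 in Sox6+ and from 37708.6 to 128493.2 in Sox6- libraries. In 2 of the 8, Slc18a2 and Drd2, the groups did not overlap, with higher values in Sox6+, against 7.86% of all tested genes. Sox6+ library 825 stood apart from the other 5 on principal component 1, which held 50.8% of the variance. In that library 10 microglia and macrophage markers summed to 27618.0, against 9.27 to 42.5 in the other 5 libraries. Lyz2 supplied most of it, at 26494.1, followed by Tyrobp at 1035.1 and Csf1r at 58.1. Aif1, C1qa and C1qb were at 0 in that library, and Cx3cr1 and C1qc at 2.28. Tmem119, a microglial marker, was at 0 in all 6 libraries. By group the sum ran from 42.42 to 27618.0 in Sox6+ and from 9.27 to 20.15 in Sox6- libraries. P2ry12, also a microglial marker, had 6.91, 26.2 and 31.4 in Sox6+ libraries 103, 825 and 1211 and 0, 0 and 0.927 in Sox6- libraries. Of the 10 markers 1, P2ry12, had groups that did not overlap, and 7.86% of all tested genes separated towards Sox6+. Endothelial markers summed to at most 72.0 and pericyte or fibroblast markers to at most 12.1 in any library. Library 825 of Sox6+ held 13429 genes with a read, the fewest of any. Across bulk libraries, fewer cells of a type and less RNA per cell cannot be told apart.

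None of the net and proteoglycan genes passed the threshold of an adjusted p under 0.05 (limma). Of the 10 genes, 7 had a mean of at least 10 normalized reads and were tested, and Acan, Hapln2 and Has2 were too low. Over all 13175 genes tested, 0.304% passed. Sox6 itself, the gene behind the sort, had a log2 difference of 3.66 towards Sox6+ and an adjusted p of 0.0528 (limma). Sox6 thus missed the same threshold, although its groups did not overlap. The authors' deposited DESeq2 comparison gives Sox6 an adjusted p of 1.07e-06. Missing the threshold here is therefore not evidence of equal levels in both groups. At an unadjusted limma p under 0.05 stood 2 of the 7, Vcan and Cspg5, against 11.4% of all tested genes. EdgeR on the recovered reads called 0 of the 7, against 0.0455% of all genes tested, and DESeq2 called 0, against 2.98%. Each had 3 of the 7 at an unadjusted p under 0.05, against 10.0% of all genes with edgeR and 11.9% with DESeq2. An adjusted p was given for 9 of the 10 genes in the authors' deposited table, and 0 of these lay under 0.05, against 2.83% of all genes with an adjusted p there. The difference was positive (higher in Sox6+) in 3 of the 7 tested and negative in 4. Over all tested genes 48.11% were positive, and the median was -0.02 on the log2(value + 1) scale.

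**Figure D1:**
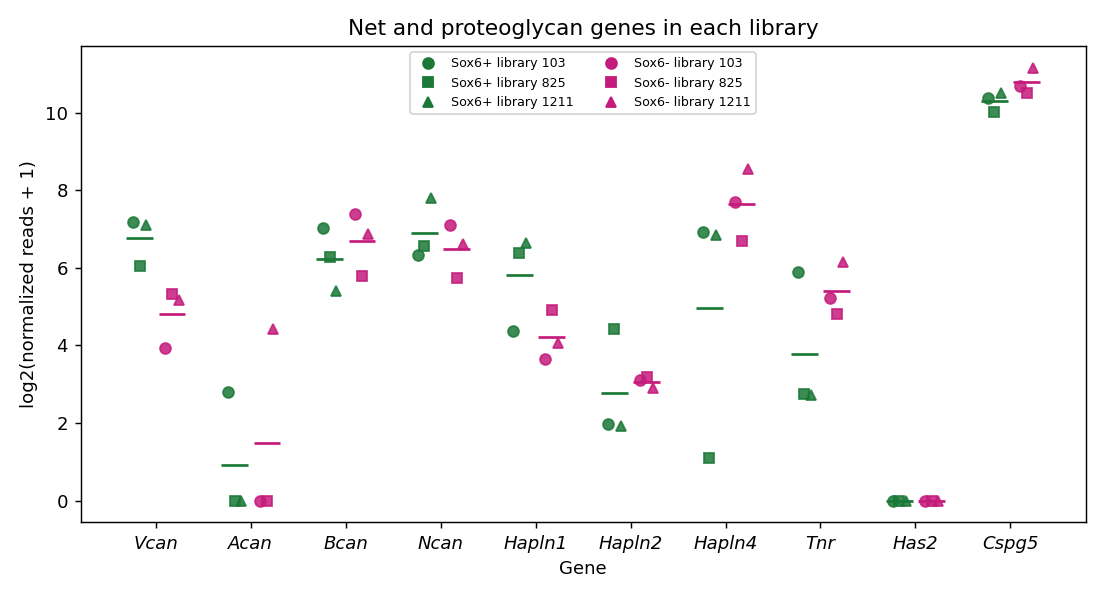
Each point is 1 library, as log2(normalized reads + 1) for each of the 10 genes, green for Sox6+ and magenta for Sox6-, with a bar at the group mean. Vcan and Cspg5 are the genes whose groups do not overlap, Has2 is at 0 throughout, and Hapln4 has a single low point in Sox6+ library 825.

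Versican, the product of Vcan, is a large lectican of developing and adult matrix. Its gene spans 89655312 to 89742509 of chromosome 13, read from the minus strand (GRCm38). It had 143.0, 64.9 and 135.8 normalized reads in Sox6+ libraries 103, 825 and 1211 and 14.4, 39.3 and 35.2 in the Sox6- libraries of the same numbers. All 3 Sox6+ values lay above all 3 Sox6- values. Such a separation towards Sox6+ was found in 1 of the 7 tested genes of the set and in 7.86% of all tested genes. The means were 114.6 ± 43.2 against 29.6 ± 13.4 (SD, n = 3 each), a ratio of 3.87. On the log2 scale Vcan differed by 1.95 (standard error 0.573, 95% interval 0.66 to 3.24), and its adjusted p over all genes was 0.236 (limma). An exact 2-sided permutation test of the means gave p = 0.1, and no smaller p exists for groups of 3 and 3. The authors' deposited table gives Vcan a log2 fold change of 1.95 towards Sox6+ neurons, with an adjusted p of 0.064.

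Between libraries of the same number, the log2 difference of Vcan was 3.23 for 103, 0.71 for 825 and 1.92 for 1211. It was thus positive at each number and smallest at 825. Vcan is also a gene of oligodendrocyte precursors, so their markers were read beside it. Pdgfra, Cspg4, Gpr17, Olig2 and Sox10, 5 of the 7 markers on the list, were at 0 in all 6 libraries, and Olig1 had 5.55 normalized reads in Sox6+ library 1211 alone. The summed level of the list ran from 5.92 to 44.4 in Sox6+ and from 373.2 to 594.5 in Sox6- libraries. Nearly all of it came from C1ql1, a synaptic gene that neurons express too. C1ql1 passed the threshold, with a log2 difference of -5.12 and an adjusted p of 0.01725 (limma). The part of precursor RNA in the level of Vcan was not tested. Without Sox6+ library 825, where Lyz2 and Tyrobp were high, the log2 difference of Vcan was 2.31.

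The 250 bases before the RefSeq start of Vcan (GRCm38.p6, minus strand, chr13:89742513-89742762) are shown because Vcan is the gene of the set with the smallest p. Capitals mark the GC-box letters GGGCGG, or their reverse complement, of which there are 2.

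Vcan upstream: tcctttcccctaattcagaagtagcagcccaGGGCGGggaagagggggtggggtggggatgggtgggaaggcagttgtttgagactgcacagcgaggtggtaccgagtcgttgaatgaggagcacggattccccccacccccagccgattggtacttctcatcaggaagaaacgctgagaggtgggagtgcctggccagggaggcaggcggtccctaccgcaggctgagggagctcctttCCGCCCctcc

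Neither the letters AACAAT, the core that Sox proteins with an HMG box can bind, nor the TATA-box letters TATAAA occur on either strand in the 300-base RefSeq window of Vcan, which adds the first 50 transcribed bases. Over all 32851 promoter windows of this length AACAAT occurred in 10.7%, TATAAA in 13.6% and GGGCGG in 35.7%. Windows were found for 7 of the 10 genes. That of Hapln1 (89540386 to 89540685) lies inside the gene as annotated by GENCODE, which starts at 89539796. Among the 7 windows, AACAAT occurred only in that of Hapln2 and TATAAA only in that of Ncan. Base composition differed as well, with G and C at 61.0% in the Vcan window, 74.0% for Acan and 48.0% for Tnr, against a median of 52.7% over all windows. These matches describe letters and are not evidence of binding.

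Lecticans and link proteins sit in the genome as neighbouring pairs. Hapln1 and Vcan lie on chromosome 13 with 43.7 kb and 0 coding genes between them. The gap is 21.5 kb for Bcan and Hapln2 on chromosome 3, 2.2 kb for Ncan and Hapln4 on chromosome 8, and 2 bases for Acan and Hapln3 on chromosome 7, again with 0 coding genes between. Hapln3, which is not among the 10 genes, was at 0 in all 6 libraries.

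Hapln1, the cartilage link protein that also stabilises lecticans on hyaluronan in nets, is the neighbour of Vcan (chromosome 13, 89539796 to 89611652, plus strand). It had 19.7, 83.1 and 98.9 normalized reads in Sox6+ libraries 103, 825 and 1211 and 11.5, 29.2 and 15.8 in the Sox6- libraries. Sox6+ library 103 lay among the Sox6- values, so the groups overlapped, though at each number the Sox6+ value was the higher. The means were 67.2 ± 41.9 against 18.8 ± 9.24 (SD, n = 3 each), a ratio of 3.57. The log2 difference was 1.59 (95% interval -0.16 to 3.35) with an adjusted p of 0.473 (limma), and it was 2.31 without Sox6+ library 103. By number it was 0.73, 1.48 and 2.57 for 103, 825 and 1211, an order unlike that of Vcan, which was largest at 103. These values rest on 258 reads of Hapln1 and 441 of Vcan over the 6 libraries.

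**Figure D2:**
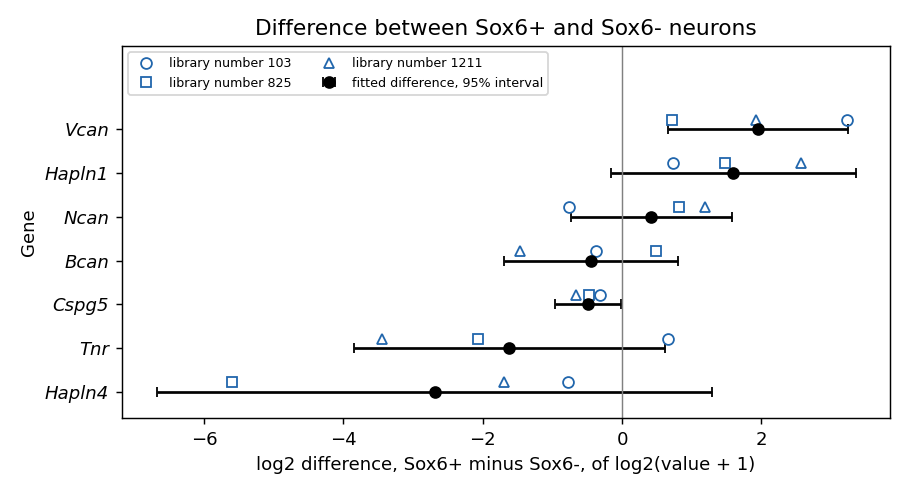
Filled points are the fitted log2 differences (Sox6+ minus Sox6-) of the 7 tested genes with 95% intervals, and open symbols are the differences between libraries of the same number. The intervals of Vcan (0.66 to 3.24) and Cspg5 (-0.96 to -0.02) leave out 0 before adjustment, and that of Hapln4 is the widest.

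Cspg5 encodes neuroglycan C, a membrane-bound chondroitin sulphate proteoglycan with an EGF-like domain that neurons make. The gene spans 110243783 to 110262576 of chromosome 9 (plus strand). Its levels were 1329.8, 1035.1 and 1448.1 normalized reads in Sox6+ libraries 103, 825 and 1211 and 1654.9, 1448.2 and 2291.7 in the Sox6- libraries. Every Sox6+ value lay below every Sox6- value, though 1448.1 and 1448.2 nearly met. Such a separation towards Sox6- was found in 1 of the 7 tested genes and in 9.19% of all tested genes. The means were 1271.0 ± 212.7 and 1798.2 ± 439.7 (SD, n = 3 each), and the log2 difference of -0.49 had a standard error of 0.209, a 95% interval of -0.96 to -0.02 and an adjusted p of 0.422 (limma). It was -0.30 without Sox6- library 1211. By number the differences were close together, at -0.32, -0.48 and -0.66 for 103, 825 and 1211.

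Astrocytes express Cspg5, Bcan and Ncan as well, and their markers were read beside these genes. The 9 astrocyte markers summed to between 3430.1 and 4103.0 in Sox6+ and between 4327.6 and 7495.5 in Sox6- libraries, so this sum, like Cspg5, was lower in Sox6+ libraries. Aldoc, a glycolytic enzyme gene, carried most of the sum, at 2723.8 to 3072.7 in Sox6+ and 3858.5 to 7044.8 in Sox6- libraries. Slc1a2, a glutamate transporter gene and the next largest part of the sum, had its higher mean in Sox6+, with 672.9 ± 289.3 in Sox6+ and 430.8 ± 143.5 in Sox6- libraries (SD, n = 3 each), overlapping groups and a higher Sox6+ value at each number. S100b averaged 45.0 ± 51.8 against 3.53 ± 1.10, at 1.97, 102.5 and 30.5 in Sox6+ libraries 103, 825 and 1211. Slc1a3 had its higher mean in Sox6-, at 0 in every Sox6+ library and 75.8, 0 and 24.1 in Sox6- libraries 103, 825 and 1211. Sox9 averaged 41.61 ± 44.65 against 46.83 ± 14.41. Aldh1l1 was at 0 in every Sox6+ library and at most 5.565 in Sox6- libraries. Gja1 was at 0 in all 6 libraries, and Aqp4 was read in Sox6+ library 1211 alone. Gfap was at most 3.42 in Sox6+ and 21.3 in Sox6- libraries. Of the 9 markers 1, Aldoc, had groups that did not overlap, and 9.19% of all tested genes separated towards Sox6-. The part of astrocyte RNA in the level of Cspg5 was not tested.

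Brevican (Bcan) and neurocan (Ncan) are lecticans of brain matrix, and neither separated the groups. Bcan (chromosome 3, 87987531 to 88000230, minus strand) had 129.2, 76.3 and 41.6 normalized reads in Sox6+ libraries 103, 825 and 1211 and 166.9, 54.4 and 116.9 in Sox6- libraries. Ncan (chromosome 8, 70093085 to 70120873, minus strand) had 79.9, 93.4 and 221.8 in Sox6+ and 136.2, 52.4 and 96.5 in Sox6- libraries. The groups were interleaved for both genes. The log2 difference was -0.45 for Bcan (95% interval -1.70 to 0.80, adjusted p = 0.79, limma) and 0.42 for Ncan (-0.74 to 1.57, adjusted p = 0.79, limma). These intervals allow a change of more than 2-fold in Bcan downwards and in Ncan upwards. The sign of Ncan rests on Sox6+ library 1211, without which its difference was -0.03. Bcan moved to -0.04 without the same library and to -0.10 without Sox6- library 103.

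Aggrecan (Acan), the lectican most used to stain nets, was hardly read in these neurons. Acan spans 79053483 to 79115099 of chromosome 7 (plus strand). It had 6 reads in Sox6+ library 103, 22 in Sox6- library 1211 and 0 in the other 4 libraries. A count of 0 allows up to 3 reads, which is 2.77 to 3.42 normalized reads in these libraries and covers counting error only. No fold was computed, since each group had a library with reads and libraries at 0, and the exact permutation p of the means was 1.0. Parvalbumin (Pvalb), the marker of the interneurons that wear dense nets, did not follow Acan, with 400.5, 0 and 868.7 normalized reads in Sox6+ libraries 103, 825 and 1211 and 60.4, 66.5 and 128.0 in Sox6- libraries.

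Hapln4, a link protein of nets in the brainstem and cerebellum, had the largest standard error of the log2 difference among the 7 tested genes, at 1.64 (chromosome 8, 70083457 to 70090862, plus strand). In Sox6+ libraries 103, 825 and 1211 it had 121.3, 1.14 and 113.7 normalized reads, and in Sox6- libraries 208.2, 102.7 and 372.8. Library 825 of Sox6+ held a single read of it, while the other 5 libraries held from 102 to 402. At each number the Sox6+ value was the lower, but the groups overlapped because Sox6- library 825 lay below 2 of the Sox6+ libraries. The means were 78.7 ± 67.3 against 227.9 ± 136.1 (SD, n = 3 each). The log2 difference was -2.69 (95% interval -6.68 to 1.29, adjusted p = 0.582, limma), and without Sox6+ library 825 it was -0.76. The ratio of the means, Sox6- over Sox6+, was 2.90.

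Sox6+ library 825 was also the library with the least GABAergic RNA. The 6 GABAergic markers summed to 5.69 there, against 7070.4 and 2340.8 in Sox6+ libraries 103 and 1211 and 4460.3 to 15561.6 in the Sox6- libraries. Gad1, Gad2, Pvalb, Sst and Npy were at 0 in it, and Slc32a1 was at 5.69. In 2 of the 6, Sst and Npy, the groups did not overlap, with lower values in Sox6+, against 9.19% of all tested genes. Sst averaged 0.658 in the Sox6+ group and 4312.2 in the Sox6- group and passed the threshold (adjusted p = 3.3e-05, limma). Npy did not pass (adjusted p = 0.184, limma). The part of GABAergic RNA in the level of Hapln4 was not tested.

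Tenascin-R (Tnr) crosslinks lecticans in the net and is made by oligodendrocytes and some neurons. Tnr spans 159523769 to 159931729 of chromosome 1 (plus strand), and 443 of its exonic bases overlap an antisense gene, Gm38039. Normalized reads were 58.2, 5.69 and 5.54 in Sox6+ libraries 103, 825 and 1211 and 36.5, 27.2 and 70.5 in Sox6- libraries. Within Sox6+, library 103 stood among the Sox6- values and the other 2 below them. The means were 23.2 ± 30.4 against 44.7 ± 22.8 (SD, n = 3 each). The log2 difference of -1.62 had a 95% interval of -3.85 to 0.61 and an adjusted p of 0.565 (limma), and it was -2.67 without Sox6+ library 103. By number it was 0.66, -2.07 and -3.45 for 103, 825 and 1211.

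Hapln2, a link protein that oligodendrocyte lineage cells place at nodes of Ranvier, was near the limit of detection (chromosome 3, 88021750 to 88027583, minus strand). It had 3, 18 and 3 reads in Sox6+ libraries 103, 825 and 1211 and 8, 8 and 7 in the Sox6- libraries. The Sox6- libraries were nearly equal. Library 825 of Sox6+ stood above them and the other 2 Sox6+ libraries below. Its mean of 8.08 normalized reads was under the minimum for the test, and the exact permutation p of the means was 1.0. The 9 oligodendrocyte markers summed to 2106.6 in Sox6+ library 825 and to between 263.9 and 392.3 in the other 5 libraries, which gave ranges of 275.2 to 2106.6 in Sox6+ and 263.9 to 392.3 in Sox6-. Mbp supplied 1943.8 of the highest sum, Mobp was at 99.1 there, and Mal, Cldn11 and Opalin were at 0 in all 6 libraries. Of the 9 markers 0 had groups that did not overlap, against 7.86% of all tested genes towards Sox6+ and 9.19% towards Sox6-. The part of oligodendrocyte RNA in Hapln2 was not tested.

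Has2, the main hyaluronan synthase gene of many tissues, had 0 reads in all 6 libraries (chromosome 15, 56665627 to 56694539, minus strand). The limit is again 3 reads per library. The other synthases were described with it. Has1 had 77.0, 39.9 and 71.2 normalized reads in Sox6+ libraries 103, 825 and 1211 and 48.0, 104.7 and 120.6 in Sox6- libraries, with a log2 difference of -0.48 and an adjusted p of 0.748 (limma). Has3 was read in Sox6- library 103 alone, at 3.84.

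Levels of different genes were compared per kilobase of exon, as normalized reads divided by the length of the union of a gene's exons. Cspg5 stood first in both groups, at 126.2 ± 21.1 per kb in Sox6+ and 178.5 ± 43.6 in Sox6- neurons (SD, n = 3 each). In every library of either group it lay above the gene that followed in that group. In Sox6+ neurons Bcan, Hapln4, Ncan, Hapln1 and Vcan came next, with means of 20.3, 20.1, 18.3, 11.4 and 7.92 per kb, and each overlapped its neighbour in the order. In Sox6- neurons the order was Hapln4 at 58.1, Bcan at 27.7 and Ncan at 13.2 per kb, which overlapped in turn, and Ncan was separated from the rest. Below it came Tnr, Hapln1, Hapln2 and Vcan, at 3.48, 3.19, 3.12 and 2.05 per kb. Tnr overlapped Hapln1 there and Hapln1 overlapped Hapln2. The lowest Hapln2 value, 2.738, barely exceeded the highest Vcan value, 2.716. By its mean alone Vcan stood in place 6 of 10 in Sox6+ and in place 8 in Sox6- neurons. Acan, at 0.264 and 0.911 per kb, and Has2, at 0, closed both orders.

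**Figure D3:**
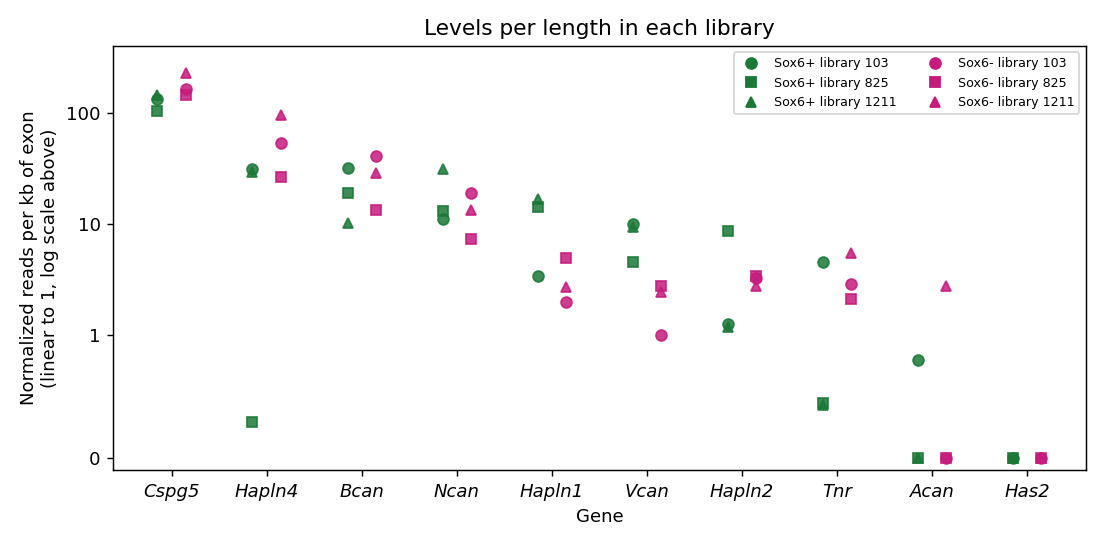
Normalized reads per kb of exon in each library, with genes ordered by their mean over 6 libraries and an axis that is linear to 1 and logarithmic above. Cspg5 leads in every library, and Hapln1 and Vcan are the genes whose Sox6+ points sit mostly above their Sox6- points.

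Genes that act with the net were taken from 5 lists with 97 symbols, of which 95 were in the table and 69 were tested. Over all 5 lists 0 genes passed with limma and 0 with edgeR, and 12 of the 69 had an unadjusted p under 0.05 with each tool, against 11.4% of all tested genes with limma and 10.0% with edgeR. DESeq2 on the recovered reads called 6 of the 69, all lower in Sox6+ neurons, where it called 1.66% of all its genes lower. These were Chsy3, Adamts5, Timp3, Gpc3, Gpc5 and Spock1. The log2 difference was positive in 22 and negative in 47 of the 69, with a median of -0.24. Over all tested genes 48.11% were positive, and the median was -0.02. Groups did not overlap in 4 of the 69 with higher values in Sox6+, against 7.86% of all tested genes. They did not overlap in 10 with lower values in Sox6+, against 9.19%. The genes described from each list are the 4 of smallest limma p unless another reason is given.

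**Figure D4:**
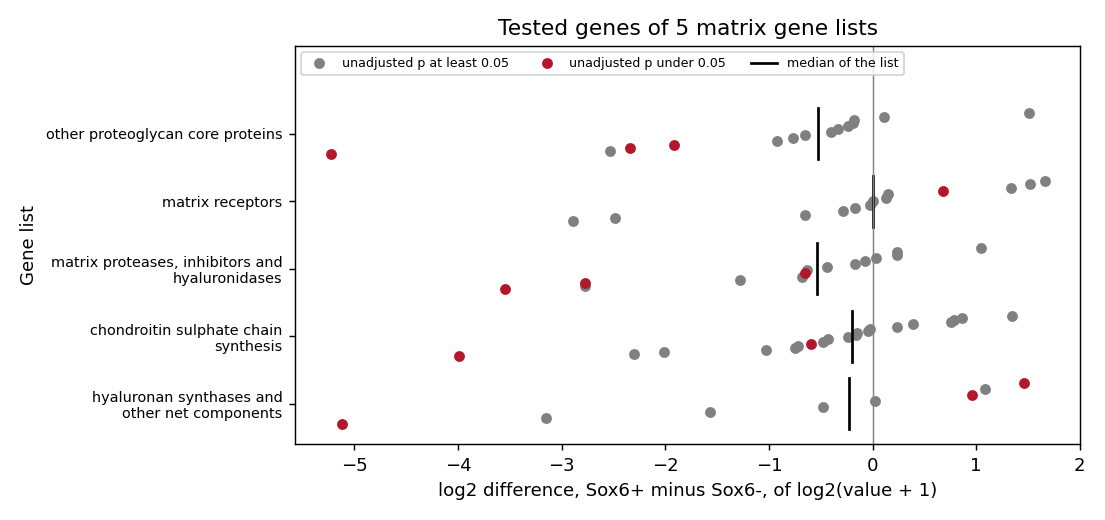
Each point is a tested gene of 5 matrix gene lists, placed by its log2 difference (Sox6+ minus Sox6-), red where the unadjusted limma p is under 0.05, with a bar at the list's median. The medians of the protease list (-0.53) and of the other core proteins (-0.52) lie left of 0, and that of the receptors lies at 0.

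Other components of the net had 8 tested genes out of 12, 4 with a positive and 4 with a negative difference and a median of -0.23. Ptprz1, whose secreted form phosphacan is a proteoglycan of the matrix, averaged 1568.0 ± 505.3 in the Sox6+ group and 813.9 ± 318.4 in the Sox6- group (SD, n = 3 each), with an adjusted p of 0.317 (limma). Nptx1, a secreted pentraxin that gathers AMPA receptors, had 265.4, 366.7 and 209.8 normalized reads in Sox6+ libraries 103, 825 and 1211 and 164.0, 67.5 and 87.2 in Sox6- libraries, so the groups did not overlap (adjusted p = 0.207, limma). Sema3a, a guidance molecule held by chondroitin sulphate in nets, had 0, 0 and 16.6 in Sox6+ and 100.7, 71.5 and 99.2 in Sox6- libraries (adjusted p = 0.15, limma). Otx2, a homeoprotein taken up through nets and a marker of some midbrain dopaminergic neurons, lay at 86.8, 0 and 10.2 against 191.9, 164.2 and 20.4, with overlap.

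Chondroitin sulphate synthesis had 20 tested genes of 25, 6 positive and 14 negative, with a median of -0.20. Chsy3, a synthase that lengthens the chain, had 2.96, 0 and 3.70 normalized reads in Sox6+ libraries 103, 825 and 1211 and 19.2, 70.5 and 51.01 in Sox6- libraries. Its groups did not overlap, and the adjusted p was 0.234 (limma). Chst12, a 4-O-sulphotransferase, lay at 460.1 ± 96.9 against 695.6 ± 172.1 (SD, n = 3 each), and B3galt6, which builds the linker, at 389.2 ± 68.6 against 541.1 ± 69.5. Dsel, an epimerase that turns chondroitin into dermatan sulphate, lay on the other side, at 352.5 ± 152.4 against 198.5 ± 59.1 without overlap. Chst3, a 6-O-sulphotransferase chosen after its values were seen, was at 0 in all 6 libraries.

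Proteases, their inhibitors and hyaluronidases had 14 tested genes of the 23 in the table, 4 positive and 10 negative. Adamts5, an aggrecanase that cuts lecticans, had 16.8, 2.28 and 9.24 normalized reads in Sox6+ libraries 103, 825 and 1211 and 321.4, 22.2 and 128.0 in Sox6- libraries, without overlap (adjusted p = 0.241, limma). Timp3, an inhibitor of such enzymes held in the matrix, had 36.5, 11.4 and 6.47 against 279.2, 48.3 and 80.7, also without overlap (adjusted p = 0.247, limma). Both genes were highest in Sox6- library 103 and lowest among the Sox6- libraries in 825. Timp2, another inhibitor, lay at 2696.1 ± 436.1 against 4307.6 ± 1327.2 (SD, n = 3 each, adjusted p = 0.314, limma). Mmp17, a membrane-anchored metalloprotease, lay at 79.3 ± 78.4 against 143.3 ± 21.2.

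Receptors of matrix molecules had 13 tested genes of 14, 6 positive and 7 negative. The receptor phosphatases for chondroitin sulphate, Ptprs, Ptprf and Ptprd, had log2 differences of -0.17, 0.13 and -0.29, named for their role. Itgb1, the integrin beta-1 subunit, averaged 1622.2 ± 563.7 in the Sox6+ group and 1013.2 ± 360.2 in the Sox6- group (SD, n = 3 each, adjusted p = 0.436, limma). Hmmr, a hyaluronan-binding protein, lay at 105.5 ± 84.5 against 49.1 ± 60.5, Itgav, an integrin alpha subunit, at 9.46 ± 11.8 against 34.0 ± 22.5, and Rtn4rl1, a Nogo receptor homologue, at 34.9 ± 50.4 against 81.2 ± 27.7.

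Other proteoglycan core proteins had 14 tested genes of 21, 2 positive and 12 negative. Gpc3, a glypican anchored in the membrane, had 0, 0 and 6.47 normalized reads in Sox6+ libraries 103, 825 and 1211 and 130.5, 55.4 and 51.9 in Sox6- libraries. Its groups did not overlap, and its adjusted p of 0.123 (limma) was the lowest in the 5 lists. Spock1, a testican of the neuronal matrix, had 163.8, 53.5 and 226.4 against 334.8, 371.6 and 885.7, again without overlap (adjusted p = 0.264, limma). Gpc1 lay at 74.3 ± 15.6 against 153.8 ± 88.4 and Gpc5, another glypican, at 25.9 ± 14.1 against 197.4 ± 221.8 (SD, n = 3 each), the latter with 449.8 in Sox6- library 1211. Perlecan (Hspg2), chosen after its values were seen, was at 0 in all 6 libraries.

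Among 9751 other genes with a mean of at least 50, those whose log2 values were most like Vcan over the 6 libraries were Rit2, Nup37, Dab2ip, Lamtor3 and Cdh20. Pearson's r was 0.978, 0.977, 0.976, 0.963 and 0.963 in that order, given as a description over libraries that share their group and their depth. The sizes of their differences ranged widely. Rit2, a small GTPase of neurons, averaged 14312.6 ± 1147.5 in the Sox6+ group and 10426.1 ± 1234.6 in the Sox6- group (SD, n = 3 each), a ratio of 1.37. Cdh20, a cadherin, lay at 117.5 ± 22.4 against 37.6 ± 17.8, a ratio of 3.12, with an adjusted p of 0.228 (limma).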

How the data were processed

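Stranded poly(A) libraries of sorted neurons were sequenced, per the labels' protocols. FastQC, cutadapt, STAR, HTSeq, DESeq2, mm10 and GRCm38 are named in the submitters' processing notes; their versions, settings and strand option were not given in the sources used here. For each library the authors deposited a normalized signal per gene. Their DESeq2 comparison, also deposited, holds a log2 fold change, its standard error and a test statistic (scores), and p-values before and after adjustment. Each signal was a count divided by a library factor: 100.0% of values above 0 were within 0.01 of a whole multiple of the value of 1 read (0.924 to 1.139), which gave back the reads.

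Genes with a mean of at least 10 were tested with limma (trend, robust) on log2(value + 1), 2-sided, with Benjamini-Hochberg adjustment at 0.05. The scale understates changes of low genes, and a 0 in a library can enlarge them. The genes and lists were chosen with earlier results of these data known. Named were all 10 genes, Sox6, genes past the threshold or the 4 of smallest p in each list, and the 5 genes most like the 1 of smallest p; others were named for their role or after their values were seen. Alternatives were other pseudocounts, filters, normalization and tests, the library number as a block, and leaving out each library. Scripts were tested on simulated data. Exon lengths and positions are from GENCODE M21 (GRCm38) and upstream sequence from RefSeq. The tools were limma 3.58.1, DESeq2 1.42.0 and edgeR 4.0.16 under R 4.3.3, with Python 3.11.15.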

Additional observations from a re-analysis of the deposited data

How the results depend on the processing

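None of the 7 tested net and proteoglycan genes passed under any of the 17 alternatives in which it could be fitted (Hapln1 and Tnr were under the filter of a mean of 50). The adjusted p of Vcan ran from 0.0688 with library weights to 0.632 without Sox6- library 1211. Ncan alone changed sign, to -0.03 without Sox6+ library 1211, and ranged up to 0.73 when other libraries were left out and to 0.95 with library weights. The other 6 kept theirs, with ranges over the alternatives of 1.51 to 2.31 for Vcan, 1.17 to 2.31 for Hapln1, -0.63 to -0.30 for Cspg5, -0.90 to -0.04 for Bcan, -2.67 to -0.95 for Tnr and -3.68 to -0.76 for Hapln4.

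Among all genes tested, 17 were higher and 23 lower in Sox6+ neurons. These counts were 34 and 35 with a pseudocount of 8, 7 and 14 with no filter, 4 and 20 without trend or robust moderation, 1 and 5 with edgeR, 171 and 216 with DESeq2, and 95 and 111 with library weights. Leaving out each library gave 0 to 59 higher (59 without Sox6+ library 103) and 1 to 102 lower (102 without the same library), and the cause was not tested. In the lists DESeq2 called 1 gene lower in chain synthesis, 2 among proteases and inhibitors and 3 among other core proteins.

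Libraries of the same number deviated together at r = 0.268, 0.172 and 0.079 for 103, 825 and 1211, so the numbers were not taken to pair the samples, although each library correlated best with its own number. With the number as a replicate block, the counts over all 13175 tested genes were 134 higher and 133 lower by limma, and 63 and 57 by edgeR. Among the 69 tested genes of the lists, limma with the block added 1 higher gene among other net components (Ptprz1) and 1 higher receptor (Itgb1). It also added 2 lower genes among proteases and inhibitors (Adamts5 and Timp2) and 2 lower core proteins (Spock1 and Spock3). EdgeR with the block added 1 of these, Adamts5. For the tested net and proteoglycan genes, the adjusted p with the block (limma) ran from 0.107 for Cspg5 to 0.697 for Ncan. It was 0.142 for Vcan and 0.219 for Hapln4. Acan and Hapln2, with 28 and 47 reads over the 6 libraries, were under the minimum for the test.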

Other observations

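Some genes of the lists were high in a single library. Decorin (Dcn), a small proteoglycan of fibroblasts, lay at 27.6 normalized reads in Sox6+ library 103 and at 0 in the other 5, while Lum and the collagen genes Col1a1, Col1a2 and Col3a1 were at 0 in all 6. Adamts8 lay at 26.0 in Sox6- library 1211 and at 0.924 or 0 elsewhere, and Adamts15 at 23.7 in Sox6+ library 103 and 4.64 in Sox6- library 1211. Tenascin-C (Tnc) lay at 59.5 in Sox6- library 103, at 12.01 and 4.64 in the libraries numbered 1211 of Sox6+ and Sox6-, and at 0 in the other 3. CD44, a hyaluronan receptor, lay at 275.6 in Sox6+ library 825, where Lyz2 and Tyrobp were high, against 16.1 to 63.1 in the other 5 libraries.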
